A study of Mus musculus with 16 samples.

Results

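The microRNA (miR) described is mmu-miR-21, 1 of the 577 miRs that an Agilent mouse miR array measured in 6 populations of early blood cells. It was chosen by name, with earlier results of these data known. The rule takes the array features annotated mmu-miR-21 and itself uses no array value. These features belonged to 2 probes of 10 spots each. The 16 single-colour arrays held RNA of sorted bone marrow cells from female C57Bl/6 mice of 6 to 8 weeks, with 10 to 20 mice pooled for each replicate per the study's methods. On the stem cell side, called the HSC subsets, were a single array of LT-HSC (long-term hematopoietic stem cells), 3 arrays of ST-HSC (the short-term kind) and 3 of MPP (multipotent progenitors). On the side of the myeloid progenitors, 3 arrays were of CMP, the progenitor common to all myeloid cells, 3 of GMP, which give granulocytes and monocytes, and 3 of MEP, which give megakaryocytes and red cells. The labels name no treatment. Marrow was depleted of lineage-positive cells and enriched for c-kit, and HSC subsets and myeloid progenitors came from separate sorts. Nothing in the labels says whether the replicates of a population were sorted on separate days, so the spread between them may be partly technical. In bulk RNA of sorted cells, fewer cells holding a miR and less of it in each cell cannot be told apart.

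A miR is cut from a hairpin transcript and guides the silencing machinery to messenger RNAs that pair with its seed, the short stretch behind its first base. MiR-21 is among the most abundant miRs of many cell types and is known for restraining inhibitors of growth such as Pdcd4. In myelopoiesis it is known as a target of Gfi1, a zinc finger repressor required for granulocyte formation, which also represses miR-196b. Gfi1 is active in stem cells and along the path from GMP to granulocytes.

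The mature sequences are shown because the seed defines the family of miR-21 and because the array also carried probes for the other arm of its hairpin. All were taken from RefSeq (GRCm38.p6), run 5′ to 3′, and have the seed, bases 2 to 8, in capitals.
mmu-miR-21a-5p: uAGCUUAUcagacugauguuga
mmu-miR-21a-3p: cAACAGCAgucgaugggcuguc
mmu-miR-21c: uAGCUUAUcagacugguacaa
mmu-miR-21b: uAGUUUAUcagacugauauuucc
The first is the miR that the array calls mmu-miR-21 and the second the one it calls mmu-miR-21*. The names were matched by distance, since the array's probes for the 2 arms start 38 bases apart in mm9 and the arms start 38 bases apart in RefSeq. Both lie in Mir21a, a hairpin of 92 bases on the minus strand of chromosome 11 (86584067 to 86584158), within the span that RefSeq gives to Vmp1 (86583858 to 86683836). In the RefSeq table the seed of miR-21a-5p was shared by 2 mature miRs, itself and miR-21c, whose gene lies on chromosome 8. MiR-21c matched miR-21a-5p in its first 15 bases and in 16 of 21 bases compared in place. MiR-21b, from chromosome 3, matched in 18 of 22 bases but not in the seed. Neither had features of its own on this array, and whether the miR-21 probes also bound them was not tested.

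The 2 probes of miR-21 covered 20 and 19 bases and started at the same coordinate in mm9, the build of the array design (chromosome 11, 86397622 to 86397641 and 86397622 to 86397640). Both were called well above background on all 16 arrays, and no spot was saturated. After outlier spots were left out, 8 to 10 spots of the brighter probe remained on an array, with a coefficient of variation between spots of 1.24% to 7.65%. The brighter probe stands for miR-21 below. The other probe read lower on every array, at 51.3% to 55.5% of the brighter one on slide 3 and at 61.8% to 68.6% on slides 1 and 2. ST-HSC, the 1 population on both sides of that gap, read 64.4% on slide 2 (1 array) and 55.0% and 55.5% on slide 3. The relation between the probes thus differed by slide within this population. It also differed between populations within slide 3, where the MPP arrays read 51.3% to 52.2%, below both ST-HSC arrays.

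Slides matter for what follows. The first 2 replicates of each myeloid population were on slide 1, which was read on another scanner than the rest. Their remaining replicates shared slide 2 with ST-HSC 1 and the array of LT-HSC. The titles of these 5 arrays and of MPP 1 carry no number, and those given here (3 for CMP, GMP and MEP, otherwise 1) are only names. Slide 3 carried every MPP array beside ST-HSC 2 and 3. Summed over the miRs, the signal of an array was 22501 to 72398 units on slide 2, below that of every array on the other slides, whose ranges overlapped (85734 to 112738 units on slide 3, 101161 to 218652 units on slide 1). Marker miRs set GMP and MEP apart as labelled. MiR-223, the granulocyte-monocyte marker, was 14.04 on the log2 scale on each GMP array and 8.26 to 10.61 in MEP. The normalization used below gives probes of equal rank the same value, so the equal GMP values show an equal rank, not an equal signal. All 3 erythroid markers (miR-144, miR-451, miR-486) were well above background on every MEP array, with a summed normalized signal of 4044 to 6187 units, against 34.4 to 76.9 in GMP. On the LT-HSC array, too, all 3 were well above background, at 2387 units, against 41.7 to 308 units on the other HSC arrays. MiR-144 was also well above background on ST-HSC 1, at 4.48 on the log2 scale, but not on ST-HSC 2 and 3 (1.62 and 1.67). The part of erythroid cells in the values of LT-HSC and ST-HSC 1 was not tested. The 2 pan-blood markers, miR-142-3p and miR-142-5p, summed to 2667 to 11860 units in ST-HSC. Their sum was 2604 to 3363 units in MPP, 5241 units in LT-HSC and 7459 to 12248 units in the myeloid progenitors. The summed signal of the 5 stem cell markers was 1527 to 2415 units in ST-HSC and 1642 to 1848 in MPP, which overlapped, and 64.5 to 1039 units in the myeloid progenitors. Neither of the 2 fibroblast and vessel markers was well above background on any array. Of the 5 markers of muscle, liver, brain and epithelium, which summed to 15.3 to 20.1 units in the HSC subsets and GMP, the muscle markers miR-1 (139 units) and miR-133a (99.3 units) were well above background on MEP 1 alone, and the neural miR-124 on CMP 1 (34.2 units) and CMP 3 (19.1 units). The part of muscle or neural RNA in the results was not tested. Without MEP 1, miR-21 differed between GMP and MEP by 0.25 (limma adjusted p = 0.520), and its higher level in ST-HSC, MPP and CMP than in MEP, described further on, was still called (adjusted p of 0.00681, 0.018 and 0.027).

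MiR-21 was bright in all 6 populations. Its unnormalized signal, corrected for background by the scanner software and averaged over the spots of the brighter probe, was 4827, 6599 and 2057 units in CMP 1, 2 and 3. In GMP it was 3314, 4606 and 1529 units, and in MEP 1931, 1368 and 858 units. On both slides that held these populations the order was thus CMP, then GMP, then MEP, although the array on slide 2 was the dimmest of each population. In ST-HSC the signal was 3209, 3248 and 3329 units, in MPP 3241, 3833 and 3786 units, and on the LT-HSC array 442 units. The LT-HSC value was the lowest of all 16, on the array with the lowest summed signal.

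After quantile normalization, which gives all arrays the same distribution of probe signals, the log2 level of miR-21 was 11.40 on the LT-HSC array. It was 12.88, 11.73 and 11.92 in ST-HSC and 11.73, 11.92 and 12.07 in MPP. In CMP it was 11.57, 11.73 and 12.24, in GMP 10.89, 11.21 and 11.40, and in MEP 11.03, 10.89 and 10.93. ST-HSC 1, on slide 2, was the highest of the 16 arrays, whereas the ST-HSC arrays on slide 3 lay within the range of the MPP arrays beside them. GMP and MEP overlapped, and CMP lay above both without overlap.

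**Figure D1:**
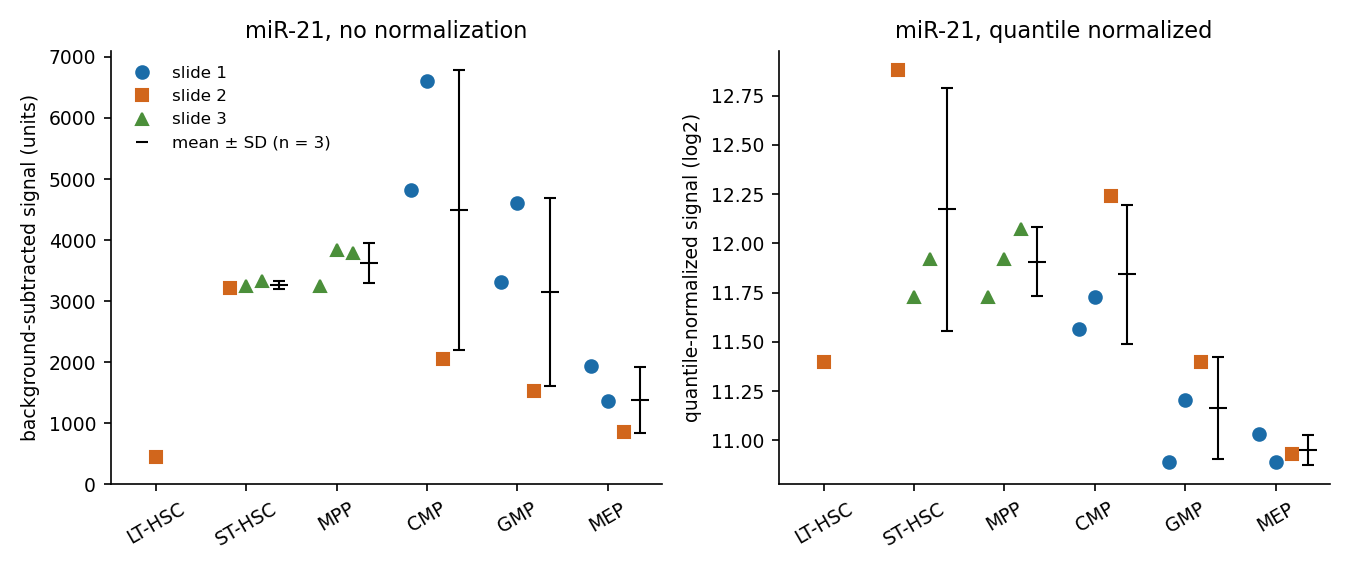
Signal of miR-21 on each array by population, as background-subtracted units without normalization (left) and on the log2 scale after quantile normalization (right). Points are arrays, with the slide as colour and shape, and black bars give the mean and SD of 3 arrays. CMP and GMP on slide 2 are the dimmest of their population at left and the brightest at right, and MEP spans 10.89 to 11.03 at right.

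Rank and share need no normalization between arrays. The rank compares the brightness of different probes, which depends also on the probe. By unnormalized signal miR-21 held a rank between 3 and 14 of the 577 miRs on every array. It ranked 9 in LT-HSC, 3, 9 and 8 in ST-HSC, 9, 8 and 7 in MPP, 10, 9 and 5 in CMP, 14, 11 and 8 in GMP and 12, 12 and 11 in MEP. Its share of the summed signal was 1.96% in LT-HSC, 6.81%, 3.58% and 3.88% in ST-HSC and 3.24%, 3.40% and 3.64% in MPP. In CMP the share was 3.02%, 3.55% and 4.79%, in GMP 1.80%, 2.11% and 2.11%, and in MEP 1.40%, 1.35% and 1.60%. The 9 myeloid arrays fell into 3 separate steps by share, with CMP highest and MEP lowest, whereas by rank the GMP arrays spanned the MEP arrays.

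**Figure D2:**
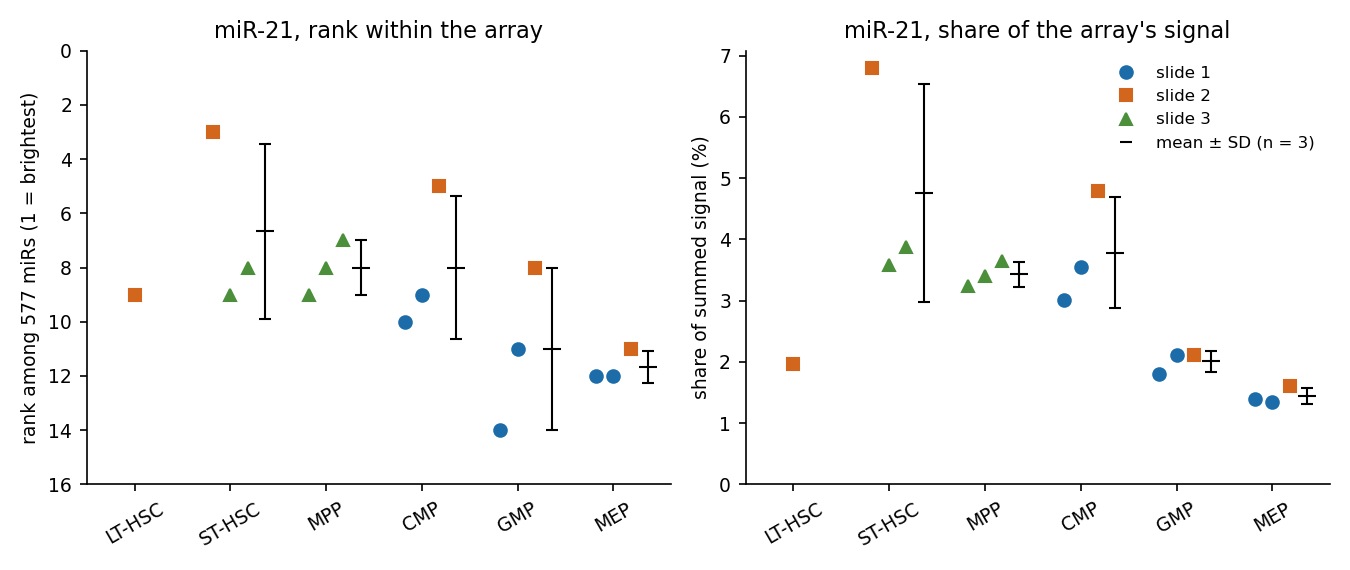
Rank of miR-21 among 577 miRs by unnormalized signal (left, 1 is the brightest) and its share of the signal summed over the miRs of the array in percent (right), by population. Points are arrays, with the slide as colour and shape, and black bars give the mean and SD of 3 arrays. The share is 1.80% to 2.11% in GMP and 1.35% to 1.60% in MEP, while ranks 8 to 14 in GMP span ranks 11 and 12 in MEP.

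To ask whether miR-21 differed among the populations at all, 1 linear model with a mean for each population was fitted in limma to the 237 miRs well above background on at least 3 arrays. MiR-21 passed (moderated F = 5.33, adjusted p = 0.00963), as did 82.7% of the miRs tested. By size of F it ranked 169 of 237. Its population means spanned 1.22 on the log2 scale, which ranked 204 of 237 and compares with a median span of 2.20. By both measures miR-21 varied less between these populations than most of the miRs tested.

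In order of their means, the populations were ST-HSC (12.17 ± 0.617), MPP (11.91 ± 0.175), CMP (11.84 ± 0.352), LT-HSC (11.40), GMP (11.16 ± 0.257) and MEP (10.95 ± 0.0748; log2, SD, n = 3, and 1 array of LT-HSC). No neighbours in this order were called different in limma, GMP and MEP, given further on, included. The difference was 0.27 for ST-HSC against MPP (95% interval -0.35 to 0.89, adjusted p = 0.595, where 4.64% of miRs were called). It was 0.06 for MPP against CMP (-0.56 to 0.68, adjusted p = 0.863, 32.9% called) and -0.45 for LT-HSC against CMP (-1.32 to 0.43, adjusted p = 0.384, 42.2% called). It was 0.23 for LT-HSC against GMP (-0.65 to 1.11, adjusted p = 0.654, 42.6% called). Since LT-HSC had 1 array, the model assumes that it varies like the other populations.

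Of the 15 pairs of populations, 4 were called. MiR-21 was higher in ST-HSC than in MEP by 1.22 (SE 0.288, limma adjusted p = 0.00266), a 2.33-fold difference, where 59.9% of miRs were called. It was higher in ST-HSC than in GMP by 1.01 (adjusted p = 0.0171, 36.7% called), in MPP than in MEP by 0.95 (adjusted p = 0.0092, 71.3% called), and in CMP than in MEP by 0.89 (adjusted p = 0.0144, 64.6% called). The arrays of each of these pairs did not overlap. Without GMP 1 the difference of ST-HSC from GMP was 0.87 (adjusted p = 0.0685), without ST-HSC 1 it was 0.66 (adjusted p = 0.0276), and it lost its call without normalization (0.19, adjusted p = 0.866) and under scaling by the 75th percentile of all probes, where it was 0.38 (adjusted p = 0.315). Without normalization ST-HSC against MEP also lost its call (1.31, adjusted p = 0.0961). MPP shared no slide with MEP, and with the other probe of miR-21 their difference was 0.37 (adjusted p = 0.252). The relation of that probe to the brighter one differed by slide and, within slide 3, between MPP and ST-HSC. Without CMP 3 the difference of CMP from MEP was 0.69 (adjusted p = 0.0632). MPP against GMP, at 0.74 (adjusted p = 0.0532, 42.6% called), fell just short of the threshold. Along the scheme of differentiation, LT-HSC lay below ST-HSC by 0.78 (95% interval of LT-HSC minus ST-HSC -1.66 to 0.10, adjusted p = 0.205, 22.8% called). CMP lay above GMP by 0.68 (95% interval 0.06 to 1.30), a 1.60-fold difference with no overlap that had an unadjusted p of 0.0346 and an adjusted p of 0.186 in limma, where 7.59% of miRs were called. With slide as a block, CMP against GMP was called at the same size (limma adjusted p = 0.00842). LT-HSC against ST-HSC (-1.48), LT-HSC against CMP (-0.65) and MPP against GMP (1.59, adjusted p = 0.00196) were called too, and the last share no slide. In that fit ST-HSC 1 alone ties ST-HSC and MPP to the other populations, since slide 3 held only ST-HSC and MPP. Its value for LT-HSC against ST-HSC is thus the difference between the LT-HSC array and ST-HSC 1. Within slide 1 CMP lay above GMP by 0.60 (limma adjusted p = 0.0632, 2 arrays against 2) and within slide 2 by 0.84 (1 array against 1, no test). On slide 2, the 1 slide with LT-HSC, LT-HSC lay below ST-HSC 1 by 1.48, the same contrast as in the block fit, and below CMP 3 by 0.84. The 4 pairs called without a block all had GMP or MEP as the lower side.

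**Figure D3:**
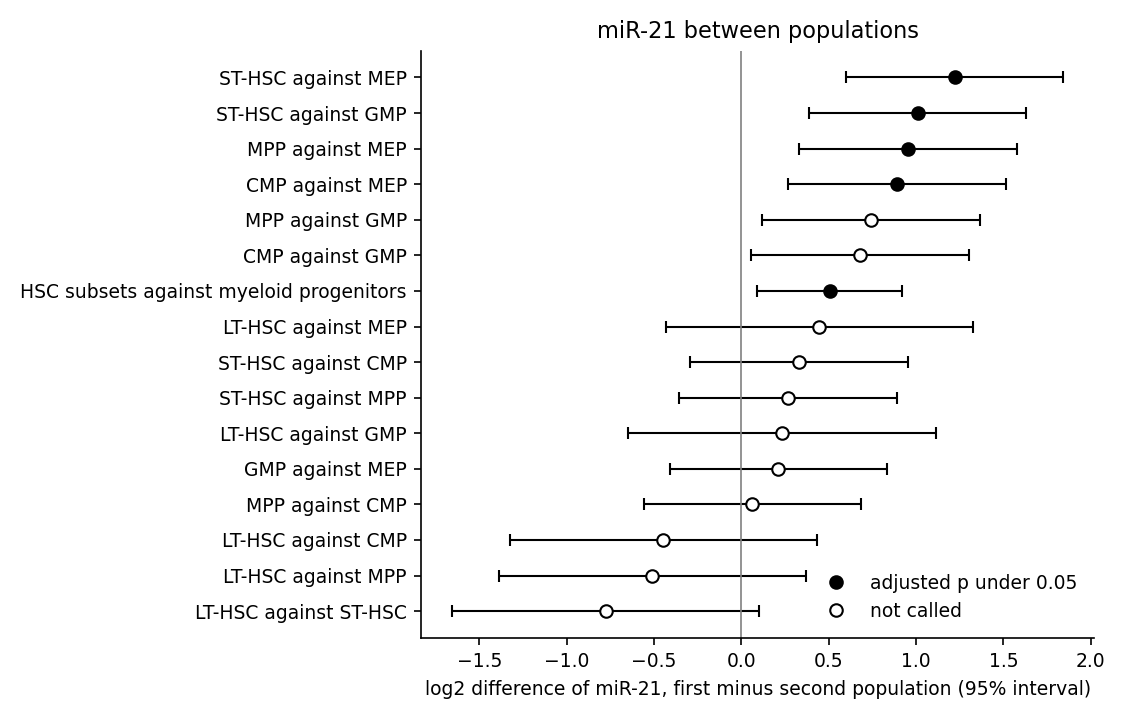
Log2 difference of miR-21 between populations, first minus second, with the 95% interval from limma, for the 15 pairs and for HSC subsets against myeloid progenitors. Filled points have an adjusted p under 0.05. The 4 filled pairs run from 0.89 (CMP against MEP) to 1.22 (ST-HSC against MEP), and the interval of GMP against MEP crosses 0.

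GMP and MEP are the branches of the myeloid tree that lead to granulocytes and monocytes and to platelets and red cells. After quantile normalization miR-21 was not called between them. The mean was 11.16 ± 0.257 in GMP and 10.95 ± 0.0748 in MEP (log2, SD, n = 3 each), a difference of 0.21 (SE 0.288, 95% interval -0.41 to 0.83, limma adjusted p = 0.540), or 1.16-fold. In the same comparison 62.9% of the 237 miRs were called, and the difference of miR-21 ranked 213 by size. Within slide 1 the difference was 0.09 (SE 0.154, limma adjusted p = 0.635, 2 arrays against 2), and within slide 2 it was 0.46 (1 array against 1, no test).

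Without normalization the signal of miR-21 in GMP exceeded that in MEP on both slides, 2.40-fold on slide 1 and 1.78-fold on slide 2. The difference over all arrays was then 1.12 on the log2 scale (limma adjusted p = 0.106). The median of the 237 miRs was shifted by almost as much, 1.09, with each GMP array brighter in sum than the MEP arrays of its slide. Under scaling to the 75th percentile of all probes miR-21 differed by 1.08 (adjusted p = 0.0041) and the median miR by 1.05. Scaled to the 75th percentile of the probes detected on all arrays, the values were 0.04 and 0.02. After quantile normalization the median miR was 0.44 higher in GMP, so that miR-21 lay 0.23 below it. Relative to the median miR, the difference of miR-21 between GMP and MEP thus ranged from -0.23 to 0.03 over the scalings, the authors' values included.

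The share of the summed signal was 2.01% ± 0.177 in GMP and 1.45% ± 0.131 in MEP (SD, n = 3 each), a difference of 0.558 percentage points. The arrays did not overlap, and the two-sided exact permutation p was 0.1, the smallest that 3 arrays against 3 can give. With the 10 brightest other miRs left out of each array's sum, the shares were 4.83% ± 0.565 and 4.39% ± 0.356 and overlapped (exact permutation p = 0.2). The mean rank was 11 ± 3 in GMP and 11.7 ± 0.577 in MEP (exact permutation p = 0.8, smallest possible 0.1). Without GMP 3 the mean rank in GMP lay 0.833 places below that in MEP.

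**Figure D4:**
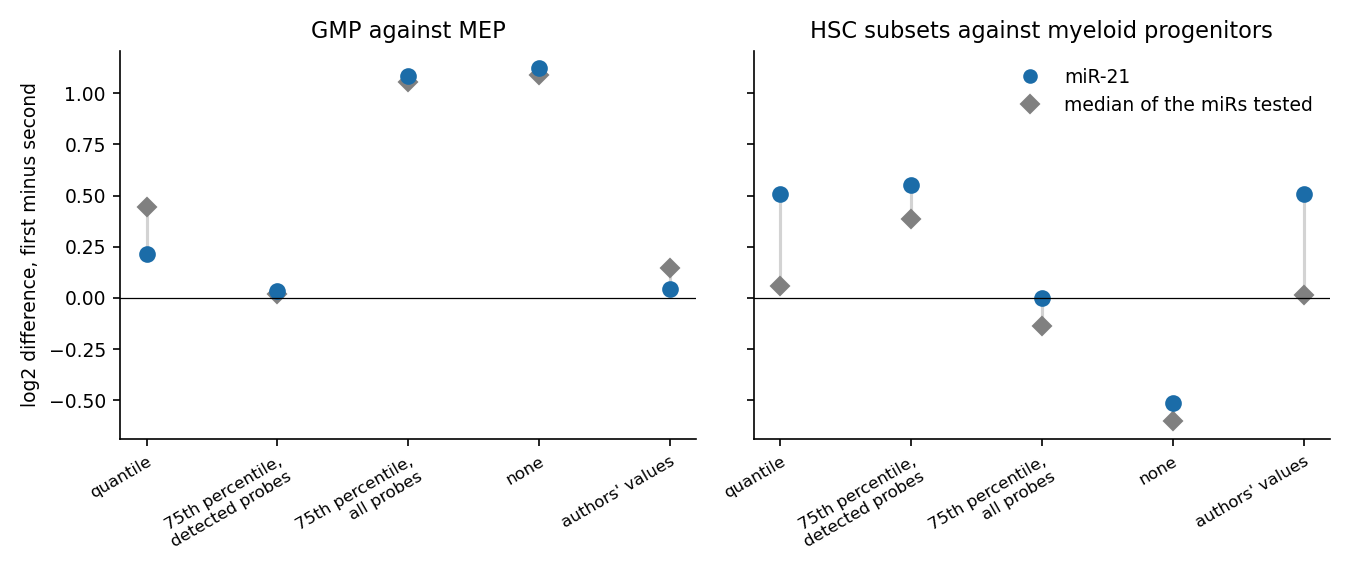
Log2 difference of miR-21 (blue circles) and median difference of the 237 miRs tested (grey diamonds) under 5 scalings of the arrays, for GMP against MEP (left) and HSC subsets against myeloid progenitors (right). Positive values are higher in the first-named side. At left, miR-21 and the median miR move together, from 0.04 and 0.02 to 1.12 and 1.09. At right, miR-21 runs from 0.55 to -0.51.

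HSC subsets were set against myeloid progenitors as the contrast of multipotent with committed cells. On HSC arrays the log2 level of miR-21 had a lowest value of 11.40, a median of 11.92 and a highest of 12.88 (n = 7), and on myeloid arrays 10.89, 11.21 and 12.24 (n = 9). The sides overlapped. With populations weighted equally, miR-21 was higher in HSC subsets by 0.51 (SE 0.192, 95% interval 0.09 to 0.92, limma adjusted p = 0.0449), a 1.42-fold difference, where 48.1% of miRs were called. The call was marginal. It was lost in 10 of the 16 cases in which 1 array was left out, namely any MPP array, any MEP array, CMP 1, CMP 2, GMP 1 or GMP 2, with adjusted p of 0.0538 to 0.0811. Without the LT-HSC array the difference was 0.72 (adjusted p = 0.00491). Slide 2 was the 1 slide with both sides. There the difference was 0.61 (2 arrays against 3, no test), made of ST-HSC 1 at 1.35 above the myeloid mean and LT-HSC at 0.13 below it. With slide as a block it was 0.89 (limma adjusted p = 0.00299), a fit in which ST-HSC 1 alone ties ST-HSC and MPP to the other populations. Without normalization the sign turned, to -0.51 (adjusted p = 0.308), with the median miR at -0.60, and scaled to the 75th percentile of all probes it was -0.00177 (adjusted p = 0.997), with the median miR at -0.13. With the other probe of miR-21 the difference was 0.38 (adjusted p = 0.104).

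MiR-21*, the less abundant arm of the same hairpin, was singled out after its values were seen. It was carried by 4 probes of 5 spots each, and its brightest probe passed the background call on 7 arrays of 16, namely those of ST-HSC and GMP and CMP 3. Its log2 level was 4.77, 3.23 and 3.71 in ST-HSC, 4.42, 4.62 and 5.48 in CMP, and 4.73, 4.57 and 4.50 in GMP. It was 2.60, 2.86 and 3.10 in MPP, 2.88, 3.07 and 3.26 in MEP and 2.69 on the LT-HSC array, where no array was well above background. CMP 1 and CMP 2 read higher than the MPP and MEP arrays but were not well above background themselves. Every GMP array, like CMP 3, was well above background and lay above every MPP and MEP array. For such a pair the fold is given as a bound, against the higher of the probe's own value and the lowest signal well above background on each dim array. MiR-21* was at least 1.93-fold higher in GMP than in MEP (measured means 4.60 and 3.07), and at least 2.99-fold higher in GMP than in MPP (measured mean 2.86 in MPP). Since the arm was chosen for its values, no test is given. The difference of miR-21 itself was 0.21 between GMP and MEP, and its level was lower in GMP than in MPP by 0.74. MPP shared no slide with GMP, so slide and population cannot be told apart for that pair, whereas GMP lay above MEP in miR-21* within slide 1 and within slide 2.

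**Figure D5:**
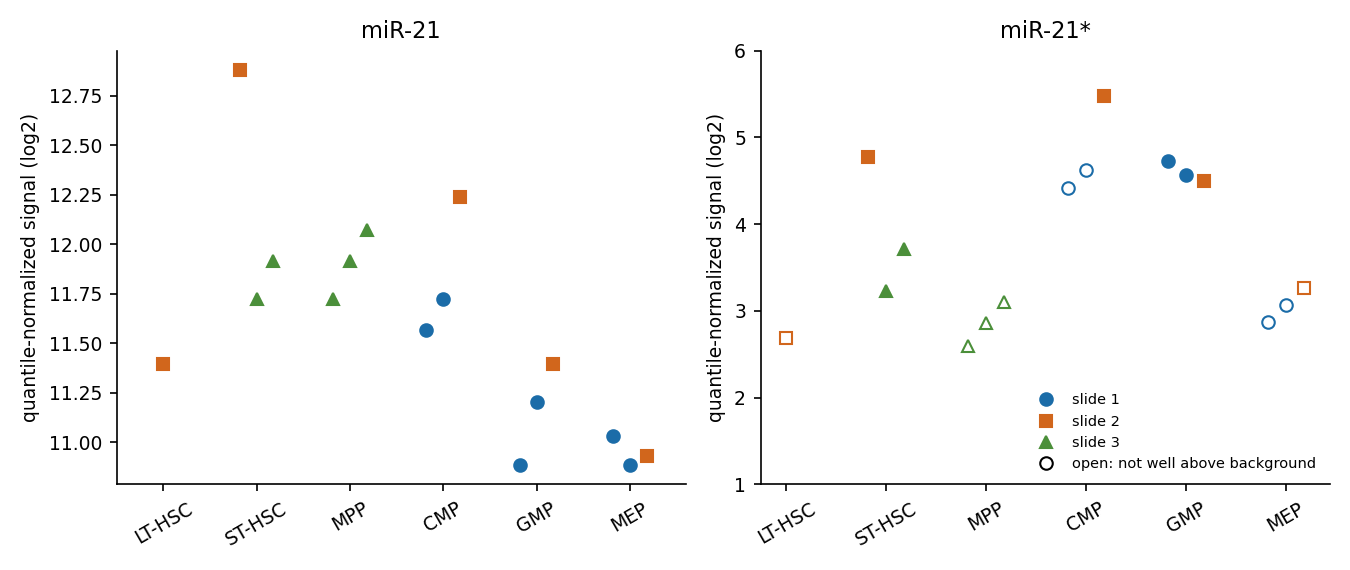
Quantile-normalized log2 signal of miR-21 (left) and of miR-21*, the other arm of the hairpin (right), on each array by population, with the slide as colour and shape. The axes differ. Open points were not well above background, and GMP lies at 4.50 to 4.73 and MEP at 2.88 to 3.26 in miR-21*, where miR-21 overlaps between them.

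MiR-196b, the other miR known as repressed by Gfi1, was set beside miR-21. Its mature sequence in RefSeq, from chromosome 6, is given to show that it does not share the seed of miR-21.
mmu-miR-196b-5p: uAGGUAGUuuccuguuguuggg
MiR-196b had a log2 level of 6.43, 6.51 and 5.48 in GMP and of 4.29, 5.01 and 4.15 in MEP, with no overlap (difference 1.66, SE 0.337, limma adjusted p = 0.000829). It was 9.28, 9.14 and 9.24 in MPP, 8.0, 8.19 and 8.28 in ST-HSC, 7.80, 7.65 and 6.72 in CMP and 6.53 on the LT-HSC array, and was higher in HSC subsets by 1.96 (adjusted p = 1.18e-05). After quantile normalization both miRs thus had their lowest mean in MEP and the next lowest in GMP. The order was not particular to them. It also held for the stem cell markers miR-125b-5p, miR-99a, let-7e and miR-130a and for miR-30c, and its share over all miRs was not counted. Without normalization the mean of miR-21 was lowest in LT-HSC. Its paralog miR-196a differed by 1.40 between GMP and MEP (adjusted p = 0.0307) but was well above background on 1 GMP array and on no MEP array, so that the size of this value is not firm.

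A list of 27 miRs known from granulocyte and monocyte development was written with earlier results of these data known. All of them passed the detection filter. Of these, 15 were higher in GMP than in MEP, 0 were lower and 12 were not called, with a median difference of 1.66. Over all 237 miRs these counts were 97, 52 and 88, with a median of 0.44. The 15 included miR-223, which restrains granulocyte activity (4.43, adjusted p = 1.41e-06), miR-27a (3.43, adjusted p = 1.1e-06), miR-23a (2.99, adjusted p = 3.61e-07), miR-24 (2.26, adjusted p = 4.28e-06) and miR-155 (2.08, adjusted p = 0.0012), known for its part in inflammatory myeloid expansion. The differences of the 12 not called ran from -0.47 (miR-34a) to 0.77 (miR-29c). That of miR-21, at 0.21 and itself not called, lay within this range. In HSC subsets against myeloid progenitors 10 of the 27 were higher and 9 lower, where 60 and 54 of the 237 were (48.1% called).

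The miRs whose pattern was most like that of miR-21 over the 16 arrays were miR-542-5p (Pearson r = 0.896), miR-322 (0.868), miR-30c (0.832), miR-193 (0.804) and miR-30b (0.801), against a median of 0.139 over the 236 other miRs. These are descriptions over arrays that share slides and depth. With each slide centred on its own mean, the first 2 had r of 0.889 and 0.916. MiR-542-5p and miR-322 are neighbours, as their mature sequences start 4853 bases apart on the minus strand of chromosome X in RefSeq and the array's probes for them also start 4853 bases apart in mm9. Neither shares the seed of miR-21.
mmu-miR-322-5p: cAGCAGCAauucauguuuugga
mmu-miR-542-5p: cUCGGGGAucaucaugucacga
MiR-322 was 9.06, 8.37 and 8.40 in ST-HSC, 8.51, 8.43 and 8.47 in MPP, 8.26, 8.37 and 8.65 in CMP, 7.44, 7.71 and 7.37 in GMP, 6.55, 6.65 and 6.03 in MEP and 7.14 on the LT-HSC array. Like miR-21 it was highest on ST-HSC 1 and, within CMP, on CMP 3. It differed between GMP and MEP by 1.10 (limma adjusted p = 0.00119), a pair in which miR-21 was not called. MiR-542-5p was well above background on 8 arrays, all but 1 of them of ST-HSC, MPP or CMP. MiR-193 was well above background on 5 arrays and lay at the lowest value allowed (log2 1.62) on every MEP array. The least alike were miR-805 (r = -0.755), miR-18a (-0.707) and miR-682 (-0.700), whose means were highest in MEP, where miR-21 was lowest. MiR-682 was well above background on 3 arrays, those of MEP, and thus entered the fit through MEP alone.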

How the data were processed

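The deposited scanner files of the 16 arrays give the intensity of each spot with its background already subtracted by Agilent Feature Extraction and with no normalization between arrays. A second deposited file holds the authors' log2 values, which they had quantile normalized in limma (version not given in the sources used here). On every array they kept the order of the median foreground intensity, from which no background is subtracted, and they served as an alternative.

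Here, spots other than controls and outliers were averaged per probe and the arrays quantile normalized, the method the study names. Values below 3.07 units were set to 3.07 (log2 1.62), the 95th percentile of the negative controls (median over arrays). Before normalization that percentile was 9.94 to 44.3 units on the arrays of slide 1. It was 1.53 to 2.21 units on slide 2 and 1.99 to 3.35 units on slide 3, so signals near background are less certain on slide 1. A probe counted as detected, or well above background, on an array if this was called for a share of 0.5 or more of its spots. Of the probes detected on 3 or more arrays, the brightest was taken for each of 237 miRs. Population means were estimated over all 16 arrays in limma 3.58.1 (lmFit, eBayes; R 4.3.3; 10 residual and 3.1 prior degrees of freedom). P-values were adjusted by Benjamini-Hochberg over the miRs of a comparison, and those under 0.05 after adjustment are the calls. The rank and the share of miR-21 were compared by two-sided exact permutation tests in scipy 1.17.1. The limma step was tested on simulated data.

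Titles gave the populations and array names the slides. Precision is limited by the number of arrays. MiR-21 and the lists were chosen with earlier results of these data known. Beside miR-21, the text names the 5 miRs most and the 3 least correlated with it, members of the lists and miRs that share its seed. As alternatives, the normalization, the background correction, the floor, the filter, the probe, a trend with intensity, blocks for slide and for replicate number, the authors' values and the omission of each array were tried.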

Additional observations from a re-analysis of the deposited data

Results flagged for a closer look

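For the 12 combinations of side and measure tested for an array far from the others of its side, 3 values of miR-21 stood apart, and chance flags about 1 in 20. Of the 7 HSC arrays, LT-HSC 1 had the lowest unnormalized signal, at 442 units, a gap to the next of 0.816 of the range. ST-HSC 1 had the best rank, at 3, with a gap of 0.667 of the range, and the highest share of summed signal, at 6.81%, with a gap of 0.604 of the range. Both arrays were on slide 2, and the part of the slide was not tested.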

How the results depend on the processing

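The call of miR-21 across the 6 populations was kept in all 29 alternative fits. It rests on F, which has no direction, and the order of the populations did change. Without normalization the mean was highest in CMP and lowest in LT-HSC, whereas in the main fit these were ST-HSC and MEP. CMP against MEP lost its call only without CMP 3 and ST-HSC against MEP only without normalization, whereas the call of HSC subsets against myeloid progenitors was fragile. All other values below are log2 differences, first side minus second. Scaled to the 75th percentile of the probes detected on all arrays, MPP against CMP reversed to -0.092, MPP against GMP (0.69) and CMP against GMP (0.78) became called, and GMP against MEP within slide 2, a setting chosen after seeing the data like the other within-slide settings, reversed to -0.065. Scaled to the 75th percentile of all probes, GMP against MEP (1.08), LT-HSC against ST-HSC (-1.70) and LT-HSC against CMP (-1.76) became called, ST-HSC against GMP (0.38) was no longer called, and LT-HSC against GMP (-1.31), MPP against CMP (-0.16) and HSC subsets against myeloid progenitors (-0.00177) reversed. Without normalization LT-HSC against ST-HSC (-2.89) and LT-HSC against CMP (-3.19) became called, ST-HSC against GMP (0.19) and ST-HSC against MEP (1.31) were no longer called, and LT-HSC against GMP (-2.69), ST-HSC against MPP (-0.15), MPP against CMP (-0.16) and HSC subsets against myeloid progenitors (-0.51) reversed, while GMP against MEP was 1.27 within slide 1, now called, and 0.83 within slide 2. MPP against GMP also became called with normexp (0.73), with a floor 2 times as high, with the filter on all 16 arrays and with an intensity trend (0.74 each) and in the authors' values (0.74), in which MPP against CMP reversed to -0.013. HSC subsets against myeloid progenitors was no longer called without a filter (0.51) and with the mean of a miR's probes (0.45) or the other probe of miR-21 (0.38). The mean of the probes and the other probe also reversed MPP against CMP (-0.20 and -0.46), and with the other probe MPP against MEP (0.37) was no longer called. With slide as a block LT-HSC against ST-HSC (-1.48), LT-HSC against CMP (-0.65), MPP against GMP (1.59) and CMP against GMP (0.68) became called and ST-HSC against MPP reversed to -0.084. There ST-HSC 1 alone ties ST-HSC and MPP to the other populations. By median foreground signal the mean rank of miR-21 in GMP was 0.333 places below that in MEP. The cause of these changes was not tested.

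With 1 array left out, the value ran from 0.39 to 0.72 for HSC subsets against myeloid progenitors, from -0.084 to 0.49 for ST-HSC against MPP, from 0.66 to 1.23 for ST-HSC against GMP, from -0.076 to 0.26 for MPP against CMP, from 0.60 to 0.86 for MPP against GMP, from 0.48 to 0.82 for CMP against GMP, from 0.69 to 1.03 for CMP against MEP, from 0.096 (without GMP 3) to 0.35 (without GMP 1) for GMP against MEP, from -1.0 to -0.42 (without ST-HSC 1) for LT-HSC against ST-HSC, from -0.58 to -0.25 (without CMP 3) for LT-HSC against CMP, from 0.095 (without GMP 1) to 0.35 for LT-HSC against GMP, and from -2.17 to 0.833 places for the rank in GMP minus that in MEP. ST-HSC against MPP reversed without ST-HSC 1, MPP against CMP without MPP 3 or CMP 1, and the rank without GMP 3. MPP against GMP became called without ST-HSC 1, ST-HSC 2 or CMP 3, and CMP against GMP without ST-HSC 1 (limma adjusted p = 0.041).

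Of 14 pairs of arrays with the same number in their titles, 8 deviated together with r over 0.1 (all pairs -0.26 to 0.48), so the numbers were not taken to pair the arrays. Among them the 6 myeloid pairs, all on slide 1, had r of 0.23 to 0.48, and the 6 differently numbered pairs of that slide had 0.30 to 0.45. With a replicate block by title number, in which arrays with no number form a block of their own, HSC subsets against myeloid progenitors was 0.39 (limma adjusted p = 0.171), no longer called, LT-HSC against GMP reversed to -0.016, and no other call of miR-21 changed.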
